A study of Mus musculus with 60 samples.

Results

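The clustered replication-dependent histone genes of the mouse were followed through preimplantation development. The members were the protein-coding genes whose GENCODE M21 symbol starts with Hist1h, Hist2h, Hist3h or Hist4h. The RPKM table (reads per kilobase of exon, scaled to library depth) held 55 of the 67 such genes of the annotation, among 27238 genes in all. They comprised 5 linker histone genes of class H1 and 14 H2A, 13 H2B, 10 H3 and 13 H4 genes. The other 12 genes of the annotation (Hist1h1t, Hist1h2af, Hist1h2bh, Hist1h2bl, Hist1h2bm, Hist1h2br, Hist2h2aa1, Hist2h2aa2, Hist2h2ab, Hist2h2bb, Hist2h3b and Hist2h3c1) were not analysed here.

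The data were 60 RNA-seq libraries in 20 groups of 3, made to compare transcription in embryos from nuclear transfer with that in fertilized embryos and donor cells. In vivo embryos came from superovulated C57BL/6 females mated with DBA2 males. NTC embryos were enucleated oocytes of adult BDF1 females that had received the nucleus of a cumulus cell (CC, the somatic cells around the oocyte) of BDF1 females, and NTM embryos had received the nucleus of a cultured, serum-starved mouse embryonic fibroblast (MEF) from BDF1 fetuses. Both nuclear transfer (NT) types were activated with strontium chloride in the presence of cytochalasin B, treated with the histone deacetylase inhibitor Scriptaid and cultured in vitro, whereas the in vivo embryos developed in the female. The oocytes also differed in strain, C57BL/6 for in vivo and BDF1 for NT embryos. The transfer, the drugs, the culture and the strain of the oocyte therefore cannot be told apart. Single embryos of each type, chosen by their morphology, were collected as 1-cell, 2-cell, 4-cell and 8-cell embryos, morulas and blastulas, and the donor CCs and MEFs formed 2 further groups. The nuclear genomes of all groups have the BDF1 background. The 3 libraries of a group are separate embryos or cell samples, and the p-values below measure the spread between them.

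Replication-dependent histone genes code for the bulk of the core histones H2A, H2B, H3 and H4, which wrap DNA into nucleosomes, and for the H1 linker histones, which bind the DNA between them. They are transcribed mainly in S phase, when the chromatin is doubled, and most of their mRNAs end not in a poly(A) tail but in a conserved stem-loop that is bound by the stem-loop binding protein Slbp. The oocyte supplies the early embryo with stored histones, with Slbp and with its own linker histone, encoded by H1foo outside the clusters. Many of the genes are near copies of each other that code for almost the same protein.

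The sequences before the members that carried most of the signal are shown first, since these genes share promoter elements and lie close together. They are the 250 bases before the RefSeq start of each gene (build GRCm38.p6), read on the strand of the gene. Capitals mark the TATA box (TATAAA) and the CCAAT box (CCAAT), searched on both strands, so ATTGG is a CCAAT box on the other strand. Hist1h2ap (H2A) is at chr13:21833476-21833725 (minus strand), Hist1h4d (H4) at chr13:23581318-23581567 (plus strand), Hist1h1b (linker histone) at chr13:21780626-21780875 (minus strand) and Hist1h1a (linker histone) at chr13:23763418-23763667 (plus strand).
Hist1h2ap: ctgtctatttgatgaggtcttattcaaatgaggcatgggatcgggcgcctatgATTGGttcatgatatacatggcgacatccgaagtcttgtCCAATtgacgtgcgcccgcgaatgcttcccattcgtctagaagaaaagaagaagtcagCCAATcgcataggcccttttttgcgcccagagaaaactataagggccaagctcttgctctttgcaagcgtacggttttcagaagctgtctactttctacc
Hist1h4d: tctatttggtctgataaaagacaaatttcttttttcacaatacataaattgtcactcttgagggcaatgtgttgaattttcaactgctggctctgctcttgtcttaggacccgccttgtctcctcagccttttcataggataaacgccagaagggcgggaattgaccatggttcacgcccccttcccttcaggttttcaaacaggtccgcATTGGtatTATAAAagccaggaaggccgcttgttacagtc
Hist1h1b: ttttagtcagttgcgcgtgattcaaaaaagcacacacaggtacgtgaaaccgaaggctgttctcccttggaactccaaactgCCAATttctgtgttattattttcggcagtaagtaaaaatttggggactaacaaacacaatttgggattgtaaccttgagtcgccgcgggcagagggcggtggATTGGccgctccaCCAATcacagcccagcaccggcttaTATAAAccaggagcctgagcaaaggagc
Hist1h1a: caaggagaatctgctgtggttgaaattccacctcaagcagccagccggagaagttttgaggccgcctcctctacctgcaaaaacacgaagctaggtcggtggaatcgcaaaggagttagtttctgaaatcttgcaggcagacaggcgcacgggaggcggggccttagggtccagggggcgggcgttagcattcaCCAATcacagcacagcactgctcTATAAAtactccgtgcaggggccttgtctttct

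RefSeq held promoters, each reaching from 250 bases before to 50 after the start, for 49 of the 55 members. A TATA box lay in 32 of the 49, and in 13.6% of all 32851 mouse promoters of that length. A CCAAT box lay in 40 of the 49, against 37.4% of all promoters, and the octamer ATTTGCAT in 11, against 1.74%. The elements followed the classes. CCAAT was present in all 4 H1, 14 H2A, 11 H2B and 8 H3 promoters but in 3 of 12 H4 promoters, and the octamer was present in 7 H2A and 4 H2B promoters and in no promoter of another class. A match describes the sequence alone.

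The stem-loop was the other shared feature, and bears on the assay because it replaces the poly(A) tail. The histone stem-loop of 16 bases was found in the annotated transcripts of 40 of the 55 members, and in 13 of 21846 other protein-coding genes (0.0595%). The capitals below mark it, with up to 5 bases on each side.
Hist1h2ap: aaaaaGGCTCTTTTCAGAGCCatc
Hist1h4d: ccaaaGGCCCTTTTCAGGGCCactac
Hist1h1c: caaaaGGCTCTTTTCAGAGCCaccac
Hist1h3g: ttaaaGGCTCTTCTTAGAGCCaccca

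Of these, Hist1h2ap and Hist1h1c carry the loop found in 21 members, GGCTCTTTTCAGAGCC, and Hist1h4d carries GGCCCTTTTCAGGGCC, which was found in 7 members, all of class H4. The annotated transcript ended within 60 bases after the loop in 19 members, such as Hist1h2ap (3 bases), and ran on for longer in the other 21, such as Hist1h4d (770 bases) and Hist1h1c (840 bases). For Hist1h4d the deposited values step at a length of 393 bases, against 1138 annotated, so the model behind them may be shorter. The annotated transcripts of Hist1h1a, Hist1h1b, Hist1h2bc and Hist1h3i held no stem-loop. That of Hist1h3i is only 411 bases long. A model that stops before the loop also gives no match, so a missing match does not show that the mRNA lacks a loop. The primer used for reverse transcription is not given in the sources used here, so the share of tailless histone mRNA that these libraries captured is unknown, and the values describe what was captured.

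Library depth ran from 5294167 to 47830132 reads on genes (median 15451428). The marker lists matched the labels in the main: the fibroblast list summed to 4645 to 6631 RPKM in MEFs and to 4.19 to 15.1 RPKM in CCs, the blastula list to between 272 and 1140 RPKM in the blastulas of the 3 types, and the oocyte list to between 2197 and 4761 RPKM in 1-cell embryos. The summed cumulus list overlapped between the donors (492 to 1154 RPKM in CCs, 496 to 1209 RPKM in MEFs), but its genes differed: in MEFs the sum was mostly Ptx3 (a mean of 625 RPKM, and 6.70 in CCs), while Cyp11a1, Star and Nr5a1 averaged 458, 91.8 and 41.3 RPKM in CCs and 0.208, 0.0485 and 0.0197 RPKM in MEFs. Has2 was at 0 in every CC library and Foxl2 at 0 in every MEF library. The two-cell list (5 genes) followed the labels less well. It summed to 39.0 to 1096 RPKM in in vivo, 119 to 236 RPKM in NTC and 5.62 to 83.5 RPKM in NTM 2-cell embryos. In in vivo 4-cell embryos it summed to 50.3 to 106 RPKM. Usp17lc, Zscan4c and Zscan4d were at 0 in every NTM 2-cell library. Transcripts of the mitochondrial genome took 5.68% to 8.87% of reads in in vivo 4-cell embryos, 31.6% to 34.7% in NTC and 29.6% to 40.4% in NTM 4-cell embryos and 32.1% to 45.0% in in vivo 8-cell embryos. Genes above 0 numbered 13576 to 13932 in in vivo 4-cell libraries, 10824 to 11929 in NTC and 8997 to 10930 in NTM 4-cell libraries. In blastulas they numbered 7730 to 7808 in in vivo, 11771 to 13000 in NTC and 11498 to 13568 in NTM libraries.

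Summed over the 55 members, the level stood highest in in vivo 4-cell embryos, at 1898, 607 and 962 RPKM in the 3 libraries (1156 ± 667 RPKM, SD, n = 3). These sums rested on 11931, 4281 and 7512 reads, 0.0907%, 0.0287% and 0.0460% of the reads of the libraries. The 2-cell embryos before them held 23.4, 25.0 and 5.01 RPKM and the 8-cell embryos after them a mean of 8.29 ± 6.80 RPKM (SD, n = 3). No library of another embryo group reached the lowest of the in vivo 4-cell libraries. The NTC 4-cell embryos held 21.1, 7.32 and 24.1 RPKM on 96, 71 and 154 reads, and the NTM 4-cell embryos 5.38, 3.94 and 3.83 RPKM on 81, 23 and 124 reads.

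The donor cells were the next highest groups. CCs held 264, 54.9 and 289 RPKM and MEFs 912, 291 and 451 RPKM, so that the lowest CC library lay far below the other CC libraries. Among 1-cell embryos the NTC type was highest, at 87.4, 95.2 and 122 RPKM, followed by the NTM type at 30.6, 33.7 and 37.4 RPKM and the in vivo type at 5.51, 16.5 and 17.7 RPKM. These 3 ranges did not overlap. Morulas averaged 5.32 ± 2.54 (in vivo), 9.82 ± 9.82 (NTC) and 5.72 ± 1.14 RPKM (NTM), and the blastulas averaged 41.7 ± 26.5 (in vivo), 25.7 ± 21.3 (NTC) and 38.6 ± 31.3 RPKM (NTM; SD, n = 3 each). The 3 types overlapped at both stages. Single libraries carried several of these means, which were 26.5 RPKM without in vivo blastula replicate 2, 13.4 without NTC blastula replicate 2, 20.5 without NTM blastula replicate 2 and 4.19 without NTC morula replicate 1.

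**Figure D1:**
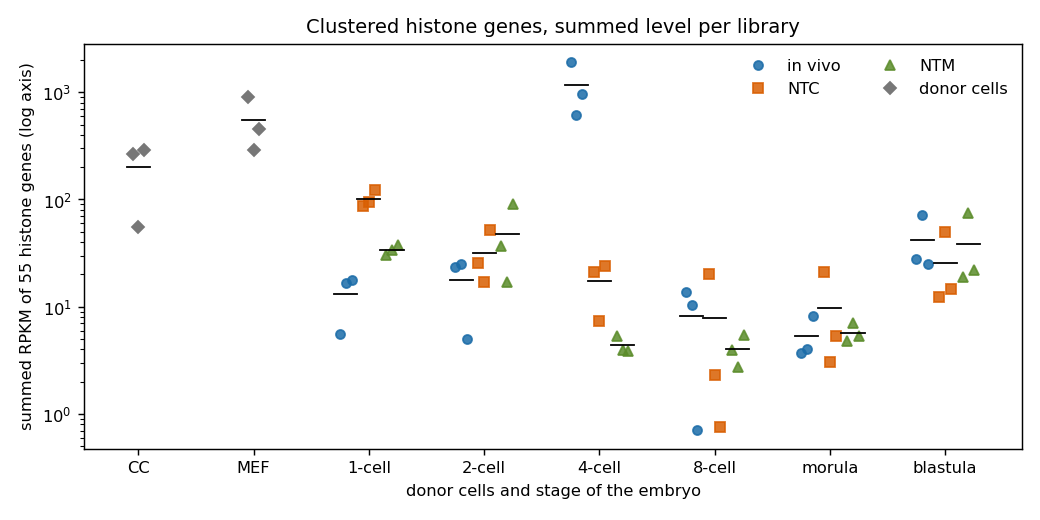
Summed RPKM of the 55 clustered histone genes in each of the 60 libraries (vertical axis, log scale), by donor cell type and stage of the embryo (horizontal axis), with bars at the group means. The 3 in vivo 4-cell libraries, at 607 to 1898 RPKM, lie above every other embryo library, and the NT 4-cell libraries lie at or below 24.1 RPKM.

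A few genes carried each of these sums, and different ones in different groups. In in vivo 4-cell embryos Hist1h2ap made up 65.8%, 52.2% and 62.7% of the sum. In the donors it was the linker histone gene Hist1h1c, with 88.7% to 98.7% of the sum in CCs and 90.5% to 96.4% in MEFs. In NTC 1-cell embryos it was another linker histone gene, Hist1h1a, with 82.1%, 81.4% and 81.9%. In 2 of the NTC 4-cell libraries it was the H3 gene Hist1h3g, with 71.0% and 61.5%. Of the 55 members, 23 had their highest group mean in in vivo 4-cell embryos, 7 in MEFs, 6 in in vivo blastulas and the other 19 in one of 9 further groups. No member stood at 0 in all 60 libraries, and 10 stayed under 1 RPKM in every one.

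The class sums in in vivo 4-cell embryos were led by H2A at 1317, 328 and 634 RPKM, then H4 at 436, 226 and 257 RPKM and H1 at 90.6, 35.4 and 55.4 RPKM. The H3 sum was 36.8, 11.5 and 8.48 RPKM and the H2B sum 16.9, 5.70 and 6.58 RPKM. The order of H2A, H4 and H1 was the same in all 3 libraries, and H2B and H3 lay below them in each. Nucleosomes hold the 4 core histones in equal number, and these captured levels, which are scaled to gene length, were far from equal.

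Linker histones. Hist1h1b stood at 65.9, 21.4 and 44.1 RPKM in in vivo 4-cell embryos and at 0 in every in vivo 2-cell, NTC 4-cell and NTM 4-cell library. Hist1h1e stood at 6.30, 4.94 and 2.29 RPKM and Hist1h1d at 3.88, 1.35 and 3.05 RPKM in the same embryos, and both were at 0 in every NT 4-cell library. Hist1h1c, the linker histone gene of the donor cells, was at 7.26, 3.27 and 1.92 RPKM in in vivo 4-cell embryos, at 0, 0.0541 and 0 RPKM in NTC and at 0 in NTM 4-cell embryos. The groups did not overlap for any of these 4 linker histone genes. The fifth, Hist1h1a, stood at 7.23, 4.39 and 4.01 RPKM in vivo, at 0, 3.94 and 0 RPKM in NTC and at 3.04, 0.478 and 0 RPKM in NTM 4-cell embryos, so one NTC library came close to the in vivo range, and its change did not pass the test (log2 change -1.83, adjusted p = 0.0796 in NTC and -1.74, adjusted p = 0.0948 in NTM, limma).

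H2A genes. Hist1h2ap stood at 1248, 317 and 603 RPKM in in vivo 4-cell embryos, on 7912, 2276 and 4743 reads. It was at 0 in every 1-cell library and in every in vivo 2-cell library, at 1.30, 0.876 and 1.42 RPKM in NTC 4-cell embryos (6, 5 and 7 reads) and at 0.119, 1.91 and 0 RPKM in NTM 4-cell embryos (1, 9 and 0 reads). The level in the in vivo embryos was 603-fold that in NTC and 1068-fold that in NTM embryos, as ratios of the means. Hist1h2ae stood at 55.1, 7.73 and 24.1 RPKM and Hist1h2ab at 3.54, 2.13 and 2.98 RPKM in vivo, and both at 0 in every NT 4-cell library. Hist1h2ap shares 91.0% of its 150-base windows with 11 other genes, Hist1h2ab 45.1% and Hist1h2ae 24.5%, so that the split of reads among these near copies is uncertain. The sum over all 14 H2A members, which include most of these copies, was 1.20 ± 0.285 RPKM in NTC and 0.702 ± 1.05 RPKM in NTM 4-cell embryos (SD, n = 3), against 760 ± 506 RPKM in vivo.

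H4 and H3 genes. Hist1h4d stood at 426, 223 and 244 RPKM in in vivo 4-cell embryos, on 2203, 1308 and 1566 reads, and at 0 in every 2-cell, NT 4-cell and 8-cell library. None of its 150-base windows is shared with another gene. Against the 3 reads per library that a count of 0 still allows, it was at least 372-fold higher in vivo than in NTC and at least 381-fold higher than in NTM embryos. Hist1h4h stood at 4.50, 1.84 and 1.81 RPKM in vivo and above 0 in a single NT 4-cell library, NTC replicate 1, at 0.665 RPKM. Hist1h3i stood at 22.9, 1.63 and 2.83 RPKM in vivo, so that 1 library carried its mean, and at 0 in every NT 4-cell library, with 52.7% of its windows shared.

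Not every core histone gene had this profile in both NT types. Hist1h3g stood at 15.0, 0.395 and 14.8 RPKM in NTC and 3.74, 0.157 and 0 RPKM in in vivo 4-cell embryos, with overlapping groups. Hist1h4i stood at 1.67, 0.831 and 8.09 RPKM in vivo, at 3.17, 0.348 and 0.805 RPKM in NTC and at 0, 1.55 and 0.597 RPKM in NTM 4-cell embryos, again overlapping. Among the H2B genes Hist1h2bc, which is also the highest of its class in MEFs (4.87, 3.77 and 7.13 RPKM), stood at 6.20, 1.82 and 0.499 RPKM in vivo and at 0, 0.803 and 0 RPKM in NTC 4-cell embryos, which overlapped, and at 0 in every NTM 4-cell library, below each in vivo library. No H2B gene was called in any of the 31 comparisons.

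**Figure D2:**
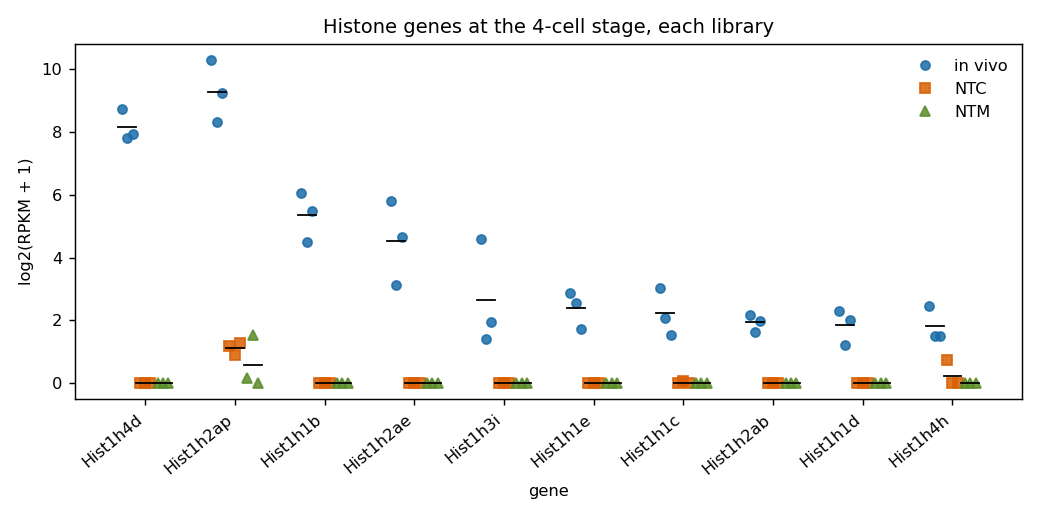
Log2(RPKM + 1) of members in the 4-cell libraries (points, 3 per embryo type; bars, means). Hist1h2ap and Hist1h4d stand at or above 223 RPKM in all 3 in vivo libraries and at or below 1.91 RPKM in all 6 NT libraries.

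Across all 55 members, 24 were above 0 in every in vivo 4-cell library. Of these, 15 were at 0 in all 3 NTC and 18 at 0 in all 3 NTM 4-cell libraries. The share of all genes with this pattern is not given here, so these counts are not set against a background. The NT 4-cell libraries held fewer genes above 0 of any kind, as given above. Every in vivo library lay above every NTC library for 20 of the 55 members and above every NTM library for 22, and no member showed the reverse. Among all genes tested, 30.9% and 33.0% had every in vivo library above every NTC and every NTM library. On the log2 scale 42 members were lower in NTC, 5 higher and 8 equal, and 43 were lower in NTM, 5 higher and 7 equal. The median log2 difference over the 55 members was -0.54 (NTC) and -0.64 (NTM), beside a median over all genes tested of -0.39 and -0.69. The members include those below the filter on low values and the genes tested do not, so the 2 medians and shares are given side by side and not compared.

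For the test, limma was run on log2(RPKM + 1) over all genes with a mean of at least 0.5 RPKM in the libraries compared, and a gene was called where its adjusted p was under 0.05 and its log2 change at least 1 in size. In NTC against in vivo 4-cell embryos 22 members were tested, 33 lay below the filter, 10 fell and none rose. Of all genes tested 20.4% fell. With NTM embryos 22 were tested, 33 lay below the filter and 9 fell, against 17.8% of all genes. One fit over all 20 groups called 17 and 16 members, and the share of all genes called by that fit is not given here. The shares of members called are not set against the background, because 16 and 18 of the 22 had an NT mean under 0.5 RPKM and so entered the test through the in vivo libraries. In NTC the log2 change was -8.16 for Hist1h4d (SE 0.36, adjusted p = 4.28e-06), -8.15 for Hist1h2ap (SE 0.48, adjusted p = 1.10e-05) and -5.35 for Hist1h1b (SE 0.49, adjusted p = 1.11e-04). In NTM the changes were -8.71 for Hist1h2ap (SE 0.65, adjusted p = 2.59e-04), -8.16 for Hist1h4d (SE 0.45, adjusted p = 1.23e-04) and -5.35 for Hist1h1b (SE 0.56, adjusted p = 9.52e-04). The other members called in NTC embryos were Hist1h2ae, Hist1h3i, Hist1h1e, Hist1h1c, Hist1h2ab, Hist1h1d and Hist1h4h, with log2 changes from -4.53 to -1.58, and the same without Hist1h3i were called in NTM embryos. Since 1 RPKM was added before taking logs, these values understate the change of the lower genes. The mitochondrial share of reads and the number of genes detected moved with this comparison, as given above, and their part in it was not tested. With mitochondrial reads left out of the totals, an alternative chosen after seeing the data, the 3 genes Hist1h4d, Hist1h2ap and Hist1h1b were still called in both comparisons. They are the members with the largest log2 changes here, so this outcome is no test of the mitochondrial share. It does not address the number of genes detected.

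The same in vivo 4-cell libraries enter the comparisons of successive stages. From the in vivo 2-cell to the 4-cell stage 24 members were tested, 12 rose and 1 fell. Of all genes 31.4% rose and 20.8% fell over this step, which spans the main activation of the embryonic genome. Members at 0 in every 2-cell library passed the filter through the 4-cell libraries alone, so these shares are not compared. Hist1h2ap rose by 9.28 on the log2 scale (SE 0.52, adjusted p = 2.87e-05), Hist1h4d by 8.16 (SE 0.38, adjusted p = 2.04e-05) and Hist1h1b by 5.35 (SE 0.47, adjusted p = 1.20e-04). All 3 were at 0 in every in vivo 2-cell library, so the 4-cell level was at least 1613-fold, 542-fold and 151-fold the level of 3 reads. The member that fell was the H4 gene Hist2h4, from 3.33, 1.68 and 0.445 RPKM in the 2-cell libraries to 0 in every in vivo 4-cell library (log2 change -1.36, SE 0.48, adjusted p = 0.0481). Its call was lost without in vivo 2-cell replicate 2 (adjusted p = 0.0974) or without any 1 of the 4-cell libraries (adjusted p = 0.0998 to 0.106, limma). Without in vivo 2-cell replicate 2 the count of members called over this step was 8.

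From the in vivo 4-cell to the 8-cell stage 22 members were tested and 12 fell, while 39.3% of all genes tested fell and the median of all genes moved by -1.05 on the log2 scale. Members at 0 in every 8-cell library passed the filter through the 4-cell libraries alone, so these shares are not compared. With median-ratio scaling 6 members fell, and the share of all genes that fell under that scaling is not given here. Hist1h4d fell to 0 in every 8-cell library (log2 change -8.16), Hist1h2ap to 2.90, 4.10 and 0 RPKM (log2 change -7.84, SE 0.71, adjusted p = 1.53e-04), and Hist1h1b changed by -5.06 on the log2 scale. The mitochondrial share, 5.68% to 8.87% before and 32.1% to 45.0% after, moved with this step too, and its part was not tested.

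In NT embryos no member was called as rising over the step from 2-cell to 4-cell, with 9 (NTC) and 5 (NTM) tested. Of all genes tested, 2027 of 12324 rose in NTC and 1425 of 11742 in NTM embryos. With so few members tested, the count of 0 is not read as a result about the members. The single member called was Hist1h1a, which fell in both types, from 21.8, 10 and 19.1 RPKM in NTC 2-cell embryos to 0, 3.94 and 0 RPKM (log2 change -3.33, SE 0.71, adjusted p = 0.00715, 1 of 9 members tested) and from 19.7, 9.39 and 80.1 RPKM in NTM 2-cell embryos to 3.04, 0.478 and 0 RPKM (log2 change -3.84, SE 0.92, adjusted p = 0.0158, 1 of 5). Of all genes, 20.1% and 14.3% fell over these steps. The NTM call was lost without NTM 2-cell replicate 1 or 3 or NTM 4-cell replicate 2 or 3 (adjusted p = 0.0509 to 0.0591, limma). The difference between the NT and the in vivo step was tested directly by an interaction term. It was called, with the lower change in NT embryos, for 8 of 20 members tested in NTC (12.0% of all genes in that direction). In NTM it was called for 8 of 21 (8.05%). For Hist1h2ap the difference was -8.40 on the log2 scale in NTC (adjusted p = 1.65e-05) and -8.92 in NTM (adjusted p = 1.50e-04). Not all of these members rose in NT embryos. Hist1h4d and Hist1h2ab were at 0 at both stages. Hist1h1b fell to 0 from means of 1.36 (NTC) and 5.22 RPKM (NTM), each carried by a single 2-cell library (4.07 and 15.7 RPKM). Members such as Hist1h4d and Hist1h2ab passed the filter only through the in vivo 4-cell libraries, so these shares are not compared. Without in vivo 4-cell replicate 1, the NTM count was 5. For Hist1h1a the difference was not called (adjusted p = 0.154 and 0.152).

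Hist1h1a was also the member that set the NTC 1-cell embryos apart. It stood at 71.7, 77.4 and 100 RPKM there (466, 792 and 838 reads), at 14.4, 19.1 and 11.2 RPKM in NTM 1-cell embryos and at 0, 6.65 and 4.38 RPKM in in vivo 1-cell embryos. The 3 groups did not overlap. The NTC level was 22.6-fold the in vivo mean (log2 change 4.59, SE 0.73, adjusted p = 0.0397, 1 of 10 members tested, with 0.988% of all genes higher) and 5.58-fold the NTM mean (log2 change of NTM against NTC -2.42, SE 0.25, adjusted p = 5.02e-04, 1 of 11, with 14.2% of all genes lower). The call between NTM and NTC embryos was lost in one fit over all 20 groups (adjusted p = 0.0665, limma) and held in the other 12 of 13 alternatives. In NTM against in vivo embryos it differed by 2.17 and did not pass the test (adjusted p = 0.250). The call in NTC against in vivo embryos held in 5 of 13 alternatives. It was lost without any one library other than in vivo 1-cell replicate 1, with a log2 change of 4.45 to 5.17 and an adjusted p of 0.0538 to 0.218 (limma).

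The donor cells held almost none of this transcript. Hist1h1a was at 0 in every CC library and at 0, 0.0420 and 0 RPKM in MEFs. In NTC embryos it fell from the 1-cell to the 2-cell stage by 2.28 on the log2 scale (SE 0.33, adjusted p = 0.00332, 1 of 11 members tested, with 8.95% of all genes falling), and by the 2-cell stage the in vivo embryos held 13.9, 19.1 and 0.0942 RPKM, a range that overlaps both NT types. The cumulus list summed to 0.0466 to 5.44 RPKM in NTC 1-cell embryos, against 492 to 1154 RPKM in CCs.

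Other members stood lower than Hist1h1a in NTC 1-cell embryos. Hist1h3g, at 0.926, 0.882 and 2.88 RPKM in NTC against 0, 0 and 0.129 RPKM in in vivo embryos, did not overlap between these groups and did not pass the test (log2 change 1.21, SE 0.41, adjusted p = 0.144, limma). Hist1h1e, at 0.132, 0.504 and 1.44 RPKM in NTC embryos and 0 in every in vivo library, did not overlap either. Nor did Hist1h2bk, at 0.594, 0.711 and 2.29 RPKM in NTM and 0, 0.138 and 0 RPKM in in vivo embryos. All 3 are given here after their values were seen, and rest on few reads. The NT libraries held 4, 6 and 16 reads of Hist1h3g, 1, 6 and 14 of Hist1h1e and 4, 5 and 18 of Hist1h2bk. The in vivo libraries held at most 1. The 1 read of Hist1h1e lies under the floor of 3 reads, so that library is not separated from 0. The share of all genes without overlap at this stage is not given here. For the next 3 the groups overlapped. Hist2h4 stood at 1.15, 4.47 and 4.61 RPKM in NTC, 0.173, 4.36 and 9.89 RPKM in NTM and 2.29, 0 and 2.23 RPKM in in vivo embryos. Hist1h3f stood at 6.53, 2.15 and 2.62 RPKM in NTC, 3.17, 2.63 and 2.21 RPKM in NTM and 0, 4.03 and 1.36 RPKM in in vivo embryos. Hist3h2ba, an H2B gene outside the chromosome 13 clusters, stood at 7.02, 1.98 and 0.888 RPKM in NTM and 0.468, 2.14 and 0.0898 RPKM in in vivo embryos. The H2A and H2B genes Hist1h2aa and Hist1h2ba, known as testis variants also found in oocytes and named here after their values were seen, reached at most 5.65 and 4.20 RPKM at this stage.

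**Figure D3:**
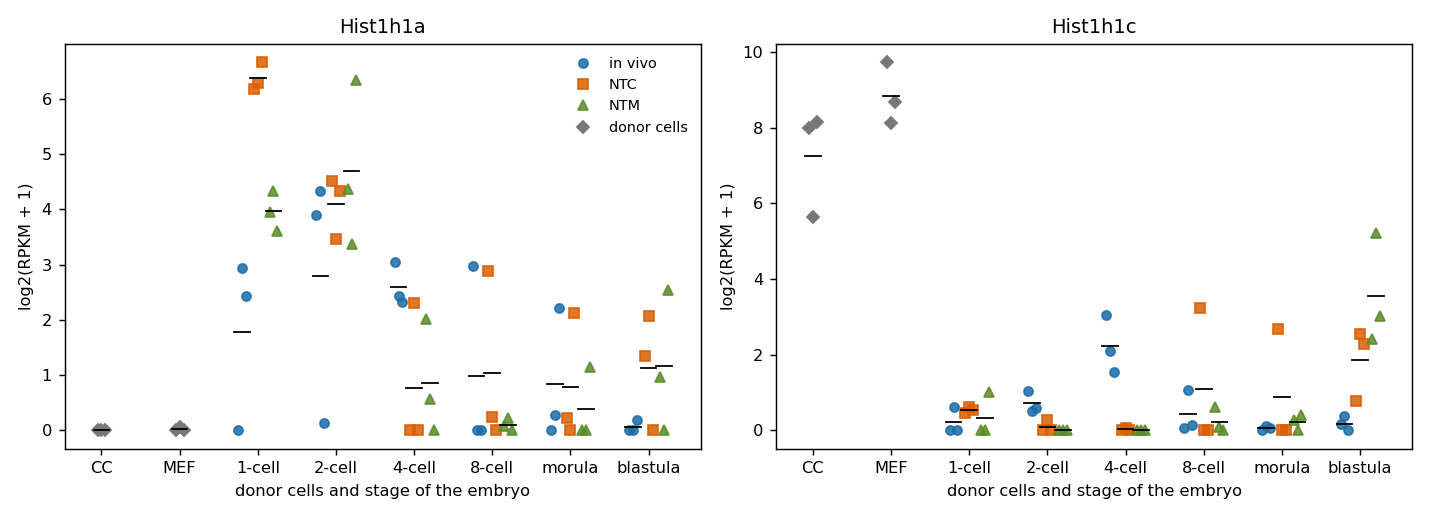
Log2(RPKM + 1) of the linker histone genes Hist1h1a (left) and Hist1h1c (right) in each library by stage (points), with bars at the group means. For Hist1h1a the NTC 1-cell embryos, at 71.7 to 100 RPKM, lie above NTM and in vivo 1-cell embryos, and for Hist1h1c the donor cells, at 48.7 to 845 RPKM, lie above every embryo library.

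Hist1h1c stood at 252, 48.7 and 285 RPKM in CCs and at 845, 280 and 408 RPKM in MEFs. These ranges overlap, and the difference between the donors did not pass the test (log2 change 1.58, SE 0.68, adjusted p = 0.264). On simulated data with 200 changed genes, limma recovered 0% of log2 changes of 2 in this comparison (11978 genes). In the data 753 genes were called, so the simulated recovery does not give the power of this fit. No member of 11 tested was called between the donors by limma, while 6.29% of all genes were, and 2 members had an unadjusted p under 0.05. The second of these was Hist1h2bc (0.182, 0 and 1.68 RPKM in CCs, adjusted p = 0.178). In NTM embryos the level rose late, from 0.202, 0 and 0.320 RPKM in morulas to 4.29, 36.2 and 7.10 RPKM in blastulas (log2 change 3.32, SE 0.70, adjusted p = 0.0278, 1 of 8 members tested, with 3.73% of all genes rising). That call held in 6 of 13 alternatives, and was lost without any one library other than NTM blastula replicate 3 (log2 change 2.49 to 3.90, adjusted p = 0.0606 to 0.106, limma). In vivo blastulas averaged 0.141 ± 0.151 and NTC blastulas 3.15 ± 2.16 RPKM (SD, n = 3), and against in vivo blastulas the difference did not pass the test (log2 difference 3.36 with adjusted p = 0.0606 in NTM, 1.69 in NTC). Fewer genes were above 0 in in vivo blastulas, as given above. The median log2 difference of NT against in vivo blastulas over all genes tested was 0.85 in NTC and 0.86 in NTM. The part of these in the Hist1h1c values was not tested.

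At the blastula stage the in vivo embryos again held more Hist1h2ap, at 3.70, 9.45 and 9.21 RPKM, against 0.471, 0.654 and 0 RPKM in NTC and 0.116, 0.641 and 0.301 RPKM in NTM embryos. The ranges did not overlap. In NTC it was 19.9-fold lower and passed the test (log2 change -2.56, SE 0.60, adjusted p = 0.0420, 1 of 14 members tested, with 0.657% of all genes lower), and in NTM it narrowly missed it (log2 change -2.57, adjusted p = 0.0591). The NTC call held in 5 of 13 alternatives, and was lost without any one library other than in vivo blastula replicate 1 (log2 change -2.71 to -2.35, adjusted p = 0.0661 to 0.110, limma). Other members at this stage varied between libraries of one group: Hist1h3c stood at 3.52, 26.0 and 0 RPKM in in vivo blastulas, Hist1h4i at 2.22, 9.85 and 1.66 RPKM and Hist1h2bc at 0.681, 5.67 and 3.68 RPKM in NTM blastulas. In the comparisons of NT with in vivo embryos at the 2-cell, 8-cell and morula stages, in which 4 to 7 members were tested, no member was called by limma and 0 had an unadjusted p under 0.05. Few genes of any kind were called there, 0.152%, 1.46% and 0.0321% of those tested with NTC and 0.141%, 2.02% and 0.168% with NTM embryos.

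The members lie on few chromosomes. Of the 55, 48 are on chromosome 13, 4 on chromosome 3, 2 on chromosome 11 and 1 on chromosome 6 (GENCODE M21, GRCm38). The chromosome 13 genes form a block of 20 over 327 kb (21716422 to 22043676) and a block of 28 over 404 kb (23531050 to 23934851). In in vivo 4-cell embryos the first block, with Hist1h2ap and Hist1h1b, averaged 788 RPKM in sum and the second, with Hist1h4d, Hist1h2ae, Hist1h1a, Hist1h1c, Hist1h1d and Hist1h1e, 365 RPKM, and 8 and 14 of their genes were above 0 in every library. Genes with high levels and genes at or near 0 stood side by side in both blocks.

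**Figure D4:**
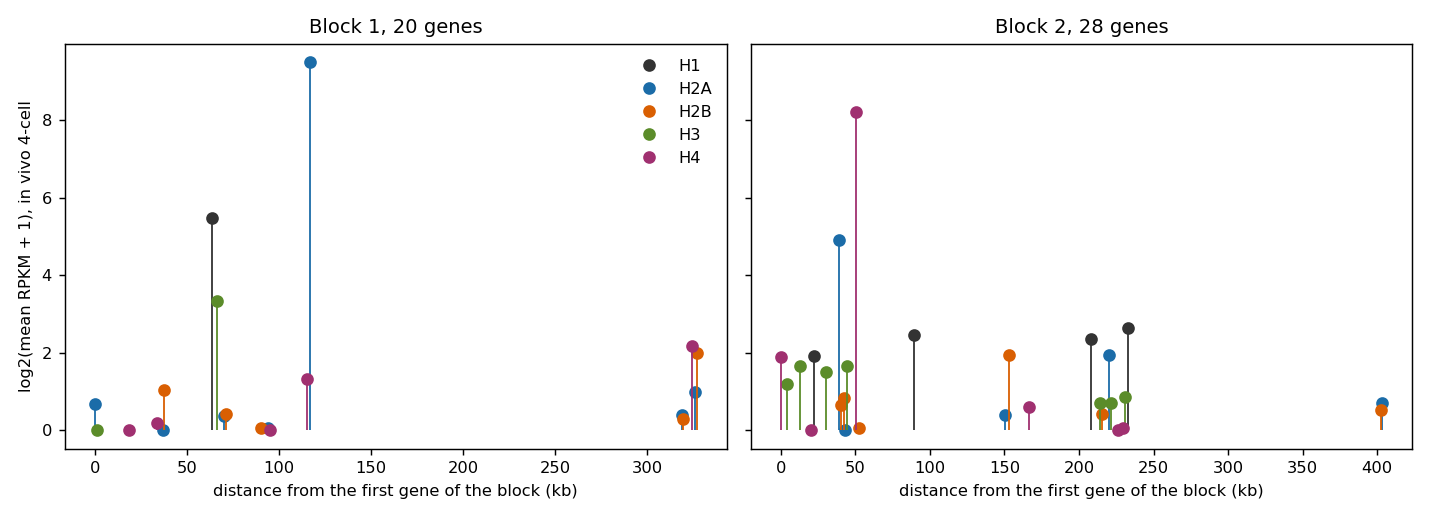
Log2(mean RPKM + 1) in in vivo 4-cell embryos of the 48 members on chromosome 13, by distance in kb from the first gene of each block, coloured by class. Single tall genes (Hist1h2ap and Hist1h1b in the first block, Hist1h4d in the second) stand among neighbours with lower levels.

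Genes that make, process and package histones were read as 4 lists, whose members code for factors of histone mRNA synthesis and 3' end processing (27 in the table), histone chaperones (22), histones outside the clusters (14) and the DNA replication machinery (40). In NTC against in vivo 4-cell embryos 5 of 25 processing genes tested fell and 1 rose (list median -0.41 on the log2 scale), 7 of 22 chaperones fell and 1 rose (-0.95), 3 of 9 outside histones fell and 1 rose (-0.98), and 12 of 38 replication genes fell and 1 rose (-0.83). The median of all genes was -0.39, and 20.4% of all genes fell and 7.40% rose, so the share of processing genes that fell was close to that of all genes. In NTM embryos the falls were 4 of 25 (-0.84), 6 of 22 (-0.63), 2 of 9 (-1.17) and 8 of 38 (-1.15), with 0, 2, 1 and 1 genes rising, beside a median over all genes of -0.69 with 17.8% of all genes falling and 3.33% rising. No test of a list against all genes was made.

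Named by the size of their change, the processing genes that fell were Ncbp1, a subunit of the cap-binding complex, from 80.3 ± 22.0 in vivo to 3.74 ± 0.745 RPKM in NTC embryos, and Hinfp, a transcription factor of H4 genes, from 63.1 ± 17.5 to 3.80 ± 3.91 RPKM (SD, n = 3). Both fell in NTM embryos too, to 4.39 ± 3.03 and 2.45 ± 3.03 RPKM. Among replication genes Rrm2, a subunit of ribonucleotide reductase, fell from 296 ± 89.2 to 6.61 ± 1.25 RPKM in NTC and 10.2 ± 8.19 RPKM in NTM embryos, and Pcna, the sliding clamp of the replication fork, from 82.0 ± 9.31 to 1.87 ± 0.122 and 2.83 ± 1.14 RPKM. The replication-independent H3.3 gene H3f3b fell from 1100 ± 99.3 to 166 ± 35.3 and 200 ± 107 RPKM, whereas the oocyte linker histone H1foo was higher in NT embryos, at 16.9 ± 8.99 and 16.8 ± 9.75 against 2.37 ± 2.22 RPKM. Adjusted p-values of these changes lay between 1.30e-05 and 0.0440 (limma). Not all histone-related transcripts followed, and H2afz, which codes for the variant H2A.Z, averaged 900 RPKM in vivo, 1080 in NTC and 995 in NTM 4-cell embryos. Slbp averaged 924 RPKM in in vivo 1-cell, 803 in 2-cell and 49.2 in 4-cell embryos, next to 53.9 in NTC and 43.0 in NTM 4-cell embryos.

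Over the in vivo step from 2-cell to 4-cell, which uses the same 4-cell libraries, 11 of 27 processing genes rose and 5 fell (median 1.04), 12 of 22 chaperones rose and 4 fell (1.69), 7 of 9 outside histones rose and 2 fell (2.93) and 20 of 39 replication genes rose and 2 fell (1.76), beside a median over all genes of 0.36 with 31.4% of all genes rising and 20.8% falling. Ncbp1 rose from 0.272 ± 0.321 and Hinfp from 0.613 ± 0.851 RPKM (SD, n = 3) to the 4-cell levels above.

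The genes whose pattern over the 20 groups was most like that of the summed members were Lars2 (r = 0.90), Fuca1 (0.89), Dolk (0.89), Kdm4a (0.86) and H3f3b (0.86), by Pearson's r of log2(RPKM + 1) group means among 11399 genes with a mean of at least 1 RPKM. The group means share libraries and sequencing depth, and r is given as a description. Lars2, the mitochondrial leucyl-tRNA synthetase, averaged 132 RPKM in in vivo 4-cell embryos and 2.97 and 2.36 RPKM in NTC and NTM 4-cell embryos. Kdm4a, a demethylase of histone H3, averaged 9.63, 0.514 and 0.0418 RPKM in these groups. Within a single embryo a lower level in the library can reflect fewer expressing cells or less RNA per cell, which these data cannot tell apart.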

How the data were processed

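Per gene and library, the authors deposited RPKM values (27238 genes, 60 libraries), that is, reads on exons divided by exon length and by the reads on genes of the library. Single embryos and donor cells were lysed, RNA was reverse transcribed on the lysate, the first-strand cDNA was tailed with poly(A) and amplified, and libraries were sequenced in pairs. The study's methods name TopHat, Bowtie2 and HTSeq for alignment and counting, while the submitters' processing notes list Bowtie 0.12.2 and mm8. Strand handling is not given in the sources used here, so reads of a gene and of a gene on the other strand cannot be told apart. The deposited RPKM values were used as they stand. Groups came from the sample titles, and every column of the table belonged to a sample.

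Symbols, positions and transcripts came from GENCODE M21 (GRCm38) by Ensembl identifier, and promoters from RefSeq (GRCm38.p6). Reads per gene were recovered from the RPKM steps, within 0.02 of a whole read, at the annotated exon length for 20388 genes (37 of the 55 members) and at a length taken from the steps of the gene's own values for 18 members. Floors of 3 reads per library cover counting error only, since reads carried no molecular identifiers.

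The study tested read counts pair by pair. With RPKM as the deposited unit, limma 3.58.1 in R 4.3.3 (lmFit, eBayes with an intensity trend) was run on log2(RPKM + 1) for each pair of groups, without a block, over genes with a mean of at least 0.5 RPKM in the libraries compared. P-values were adjusted by Benjamini-Hochberg over all genes tested. Differences of stage changes were tested by an interaction term. On simulated data with 200 changed genes, the fit recovered 98.5% of log2 changes of 4 in NTC against in vivo 4-cell embryos (11457 genes). A change of 2 was recovered in 42% there, in 24.5% in NTC against in vivo 1-cell embryos (10834 genes), and in 0% from in vivo 2-cell to 4-cell (12995 genes) and in MEFs against CCs (11978 genes), where changes of 4 were recovered in 89.5%, 83% and 87.5%. The data differed from this setting. From in vivo 2-cell to 4-cell 4078 genes rose and 2706 fell, and members with changes under 2, such as Hist1h3e (1.37), were called. More changed genes make the adjustment more lenient, so the simulated recovery does not give the power of that fit.

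Values of every library were given for the 2 members of each class with the highest mean over all libraries. In each comparison the 3 called members with the largest log2 change in each direction were named, and further the 3 members of each class with the most called comparisons. The members and the lists were chosen with earlier results of these data known. Alternatives were the replicate number as a block, a single fit to all 20 groups, scaling by median ratios, a pseudocount of 0.1, dropping the filter, leaving out each library and, added after seeing the data, scaling without mitochondrial reads and over genes of up to 1000 nt.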

Additional observations from a re-analysis of the deposited data

Results flagged for a closer look

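The difference between nuclear transfer and in vivo embryos in the change from the 2-cell to the 4-cell stage was called by the limma interaction term for 8 members with each donor type. In NTC embryos it was -8.40 on the log2 scale for Hist1h2ap, -8.16 for Hist1h4d, -6.13 for Hist1h1b, -4.53 for Hist1h2ae, -2.44 for Hist1h1e, -2.36 for Hist1h1d, -2.03 for Hist1h4h and -1.94 for Hist1h2ab, with adjusted p-values from 6.90e-06 to 0.0437. In NTM embryos it was -8.92 for Hist1h2ap, -8.16 for Hist1h4d, -6.70 for Hist1h1b, -4.70 for Hist1h2ae, -2.39 for Hist1h1e, -1.95 for Hist1h4h, -1.94 for Hist1h2ab and -1.81 for Hist1h1d, with adjusted p-values from 3.22e-05 to 0.0476. Both sets use the same in vivo 2-cell and 4-cell libraries, and members such as Hist1h4d and Hist1h2ab passed the filter only through the in vivo 4-cell libraries. The calls were not equally firm. Of 19 alternatives, Hist1h4h was still called in 4 (NTC) and 6 (NTM) and Hist1h1d in 18 (NTC) and 4 (NTM). The other members were still called in 16 or more.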

How the results depend on the processing

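No value changed direction under any alternative. The calls of Hist1h4d, Hist1h2ap, Hist1h1b and Hist1h2ae at the 4-cell stage held in 13 of 13 alternatives for both donor types. Those of Hist1h1c, Hist1h2ab and Hist1h1e held in 13 of 13 with NTC and in 11, 12 and 12 with NTM embryos. The rest were weaker. Hist1h4h held in 3 (NTC) and 4 (NTM) of 13, Hist1h1d in 11 (NTC) and 5 (NTM) and Hist1h3i in 6 (NTC). Of the values of single named members, 168 of 191 with a library left out and 170 of 182 under the other alternatives kept their side of the threshold, and the rest (23 and 12) lost it. Counts of called members moved as follows, and the cause was not tested. The share of all genes called under each alternative is not given, so these counts are not set against a background. With a pseudocount of 0.1 there were 0 called in NTC against in vivo 1-cell, 2 in NTC and 3 in NTM against in vivo blastulas. Without the filter there were 0 in NTC against in vivo 1-cell, 0 in NTC against in vivo blastulas, 8 from in vivo 2-cell to 4-cell and 0 from NTM morula to blastula. Median-ratio scaling gave 0 in NTC against in vivo blastulas and 6 from in vivo 4-cell to 8-cell. One fit over all groups gave 17 in NTC and 16 in NTM against in vivo 4-cell, 5 in NTC and 4 in NTM against in vivo blastulas, 4 from in vivo morula to blastula, 2 from NTC 2-cell to 4-cell, 1 from NTC 4-cell to 8-cell, 1 from NTC morula to blastula, 5 from NTM 1-cell to 2-cell, 2 from NTM morula to blastula, 0 in NTM against NTC 1-cell and 2 in MEFs against CCs. Scaling over genes of up to 1000 nt gave 2 in NTM against in vivo blastulas, 0 from NTM morula to blastula and 5 (NTC) and 4 (NTM) differences of the change from 2-cell to 4-cell. Leaving mitochondrial reads out gave 2 in NTM against in vivo blastulas, and summed levels of 9.27 (in vivo morula), 6.87 (NTM 4-cell), 6.99 (NTM 8-cell) and 11.8 RPKM (NTM morula).

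With 1 library left out, the counts ran from 0 to 1 in NTC against in vivo 1-cell, from 0 to 2 in NTC against in vivo blastulas, from 8 to 13 from in vivo 2-cell to 4-cell, from 1 to 2 from NTC 2-cell to 4-cell, and from 0 to 1 from NTC morula to blastula, NTM 2-cell to 4-cell and NTM morula to blastula. They ran from 7 to 11 in NTC and from 6 to 9 in NTM against in vivo 4-cell, and for the difference of stage changes from 0 to 1 (NTC, 1-cell to 2-cell) and from 5 to 10 (NTM, 2-cell to 4-cell). The lone changes outside those named above came without NTC 4-cell replicate 2 (2), NTC blastula replicate 1 (1) and in vivo 2-cell replicate 3 (1).

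The replicate numbers share only a number: in 0 of 27 comparisons did every pair of same-numbered libraries have deviations that correlated above 0.1. Fitted as a replicate block, they gave 0 in NTC against in vivo 1-cell, 0 in NTC against in vivo blastulas, 2 from NTC 2-cell to 4-cell, 1 in MEFs against CCs and 5 differences in NTM embryos. Depth limits the low members: 33 of 55 lay below the filter in each 4-cell comparison.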
